A study of Mus musculus with 7 samples.

Results

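Acyl-CoA synthetases were followed as a gene family in the mouse line 3T3-L1, whose fibroblast-like cells turn into fat cells when given hormones. The family was taken as 10 named genes, 5 long-chain acyl-CoA synthetases (the ACSL family, Acsl1, Acsl3, Acsl4, Acsl5 and Acsl6) and 5 fatty acid transport proteins (the FATP family, Slc27a1, Slc27a2, Slc27a3, Slc27a4 and Slc27a6). A gene was used where a row of the array table carried its symbol and no other, which held for 8 of the 10, out of 18820 genes in all. Acsl3 shared its row with Utp14b, and Acsl1 had no row with a symbol of its own in the array annotation used, so neither was analysed here. Each of the 8 had a single row.

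The control group was 4 arrays of cells kept in DMSO, the solvent, and the treated group was 3 arrays of cells kept in 1 µM of a purchased compound that inhibits stearoyl-CoA desaturase (SCD). Both groups were induced for 2 days by insulin, dexamethasone and isobutylmethylxanthine and held in insulin afterwards, were exposed to inhibitor or solvent the whole time, and gave total RNA on day 7. The sources used here name neither the compound nor any genetic change, and do not say whether replicates were separate cultures, so p-values measure the spread between these arrays, which may be technical. One cell line with 1 inhibitor at 1 dose was studied.

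A free fatty acid cannot be used by the cell until it is joined to coenzyme A, and acyl-CoA synthetases carry out this activation. ACSL enzymes sit on the endoplasmic reticulum, mitochondria and lipid droplets and differ in the chain length and unsaturation they prefer, while FATP proteins couple the uptake of fatty acids to their activation. In fat cells the products feed triacylglycerol synthesis, phospholipid remodelling and oxidation. SCD itself acts on saturated acyl-CoA, so it uses what these enzymes make.

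With the inhibitor, Acsl4, the family's arachidonate-preferring enzyme, fell 1.28-fold (log2 difference -0.36, SE 0.059, n = 3 against 4), and Slc27a1, the insulin-responsive transport protein FATP1 of fat and muscle, rose 1.21-fold (log2 0.27, SE 0.054). The other 6 genes, Acsl5, Acsl6, Slc27a2, Slc27a3, Slc27a4 and Slc27a6, did not pass the test. Thus 2 of 8 genes passed, 1 in each direction, where 8.0% of all genes tested passed, 3.62% higher and 4.37% lower. The balance of all calls moved with the scaling, from 682 higher and 823 lower to 1032 of each after a further quantile normalization and to 1117 higher and 943 lower with arrays centred on their medians. A gene passed at an adjusted p under 0.05 in limma, a linear model fitted to all genes at once, with p-values adjusted over all 18820 by Benjamini and Hochberg. The median difference was 0.051 over the 8 genes and -0.0037 over all genes.

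The promoters of the 2 genes that passed are shown because these genes carry the contrast within the family. They are RefSeq sequences of assembly GRCm38.p6, from 250 bases before to 50 bases after an annotated start, written 5′ to 3′ on the gene's strand. Capitals mark matches to one of 5 short motifs, searched on both strands: the sterol regulatory element core TCACNCCAC, the CEBP-ATF element TGATGNAA, the PPAR element (AGGNCA in tandem with a single base between), the E-box CACGTG and the CCAAT box CCAAT. Acsl4 has 1 start in the table, at chrX:142390486-142390785 on the minus strand. Slc27a1 has 3, of which those with a match are given, start 1 at chr8:71568621-71568920 and start 3 at chr8:71570344-71570643, both on the plus strand.
Acsl4: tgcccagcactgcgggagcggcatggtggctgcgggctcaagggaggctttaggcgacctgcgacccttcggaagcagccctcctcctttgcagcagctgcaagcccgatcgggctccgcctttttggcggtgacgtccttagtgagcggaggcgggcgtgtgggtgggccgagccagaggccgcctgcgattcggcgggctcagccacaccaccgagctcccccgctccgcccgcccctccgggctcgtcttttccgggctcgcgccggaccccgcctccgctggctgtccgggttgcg
Slc27a1 start 1: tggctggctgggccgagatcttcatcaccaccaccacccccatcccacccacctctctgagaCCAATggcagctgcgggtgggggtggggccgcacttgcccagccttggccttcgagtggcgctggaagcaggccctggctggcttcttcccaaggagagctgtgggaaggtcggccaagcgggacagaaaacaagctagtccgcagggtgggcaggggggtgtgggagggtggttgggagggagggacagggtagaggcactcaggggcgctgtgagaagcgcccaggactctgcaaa
Slc27a1 start 3: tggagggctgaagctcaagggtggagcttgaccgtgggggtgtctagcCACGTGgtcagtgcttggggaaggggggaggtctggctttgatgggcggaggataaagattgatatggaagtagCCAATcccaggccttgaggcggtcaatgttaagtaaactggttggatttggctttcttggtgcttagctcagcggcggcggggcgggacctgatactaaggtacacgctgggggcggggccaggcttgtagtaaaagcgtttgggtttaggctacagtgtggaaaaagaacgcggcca

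The Acsl4 window is 71.7% G and C and held no match to any of the 5 motifs. Slc27a1 start 1 held a CCAAT box whose first base lies at position -188 from the start. Its start 3 held an E-box from position -202 and a CCAAT box from position -128, and its start 2 held no match. Of 32851 mouse promoter windows of this length, 37.4% held a CCAAT box, 7.15% the E-box, 3.97% the CEBP-ATF element, 1.24% the sterol element and 0.381% the PPAR element. Of the other members, the windows of Acsl5 and Slc27a3 and 2 of the 3 windows of Acsl6 held a CCAAT box, and those of Slc27a2 and Slc27a4 held no match; Slc27a6 was not searched. These are matches of letters in short windows and not measured binding.

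Levels below are RMA values on the log2 scale, as deposited. Acsl4 is known for loading arachidonate and related polyunsaturated fatty acids into membrane lipids. It read 9.74, 9.89, 9.79 and 9.88 on the DMSO arrays and 9.36, 9.57 and 9.47 on the inhibitor arrays. Every inhibitor array lay below every DMSO array, as for 9.02% of all genes. The group means were 9.83 ± 0.071 (SD, n = 4) and 9.47 ± 0.11 (SD, n = 3), and the difference of -0.36 had a 95% interval of -0.50 to -0.22 and an adjusted p of 0.0137 in limma. A larger absolute difference was found for 4.11% of genes. The call ended in 3 fits with fewer arrays: the adjusted p was 0.0517 without DMSO 4, 0.0614 without SCD inhibitor 3 and 0.0507 without both arrays numbered 1, while the difference itself stayed between -0.41 and -0.31 in all 17 alternative settings.

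Acsl5, an enzyme of mitochondria and the endoplasmic reticulum, read 7.47, 7.47, 7.43 and 7.52 in DMSO and 7.52, 7.74 and 7.73 with the inhibitor. SCD inhibitor 1 had the same value as DMSO 4, and the other two inhibitor arrays lay above all DMSO arrays. The difference was 0.19 (SE 0.057, 95% interval 0.056 to 0.33), with an adjusted p of 0.109 in limma, so it did not pass. This outcome turned on SCD inhibitor 1: without that array the difference was 0.26 and the adjusted p 0.00955, and without both arrays numbered 1 the adjusted p was 0.0369. It also passed after a further quantile normalization (adjusted p = 0.0294), with arrays centred on their medians (0.0247), without the dimmest 50% of genes (0.0485) and with array weights (0.0384).

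Acsl6, an enzyme best known from brain, where it serves the uptake of docosahexaenoate, read 3.86 to 3.88 in DMSO and 3.86 to 3.91 with the inhibitor. The groups overlapped, and the difference was 0.0044 with a 95% interval of -0.042 to 0.051. Within the ACSL family, 3 of 5 genes could thus be followed, and 1 of the 3 passed.

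**Figure D1:**
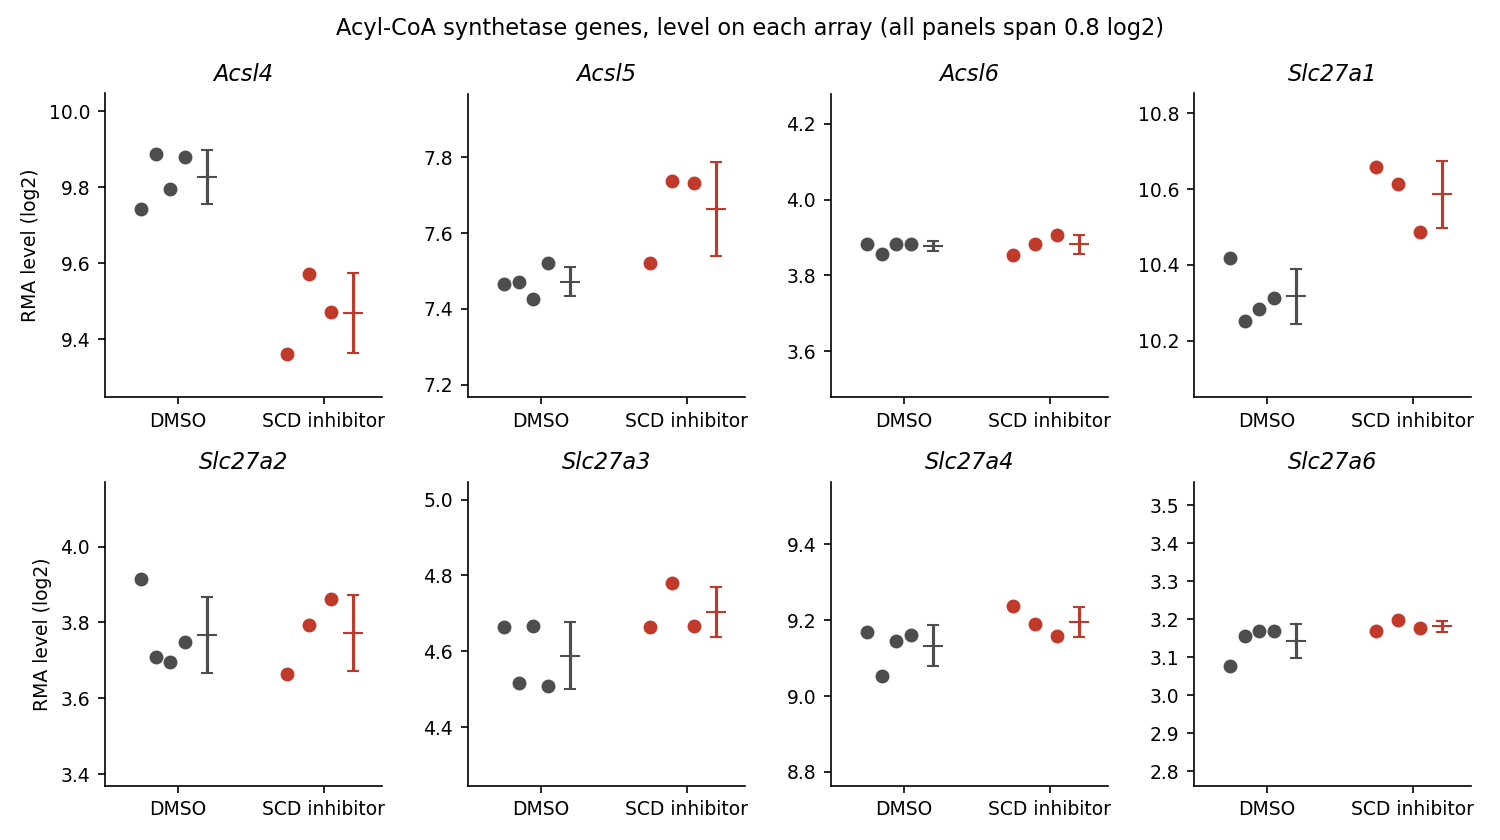
Level of each of the 8 measured genes (RMA value, log2) on the 4 DMSO arrays (grey) and the 3 SCD inhibitor arrays (red), 1 point per array, with the group mean and SD beside them; each panel spans the same range of log2 units around its own centre. The groups are apart for Acsl4 (lower with the inhibitor) and Slc27a1 (higher) and touch or overlap for the other 6.

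Slc27a1 encodes FATP1, which moves to the surface of fat cells in response to insulin. It read 10.42, 10.25, 10.29 and 10.31 in DMSO and 10.66, 10.61 and 10.49 with the inhibitor. All inhibitor arrays lay above all DMSO arrays, as for 8.30% of all genes, with SCD inhibitor 3 nearest to DMSO 1. The means were 10.32 ± 0.072 (SD, n = 4) and 10.59 ± 0.088 (SD, n = 3), the difference was 0.27 with a 95% interval of 0.14 to 0.40, and the adjusted p in limma was 0.0296. A larger absolute difference was found for 6.87% of genes. The call ended without DMSO 2 (adjusted p = 0.0829), DMSO 3 (0.0934), DMSO 4 (0.0915), SCD inhibitor 1 (0.089) or SCD inhibitor 2 (0.108) and without both arrays numbered 1 (0.0712), with differences between 0.23 and 0.32 throughout.

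Slc27a4 encodes FATP4, a synthetase of the endoplasmic reticulum needed for the skin barrier. It read 9.17, 9.05, 9.15 and 9.16 in DMSO and 9.24, 9.19 and 9.16 with the inhibitor, and the groups overlapped. Its difference of 0.06 had a 95% interval of -0.023 to 0.15, so a change as large as that fitted for Slc27a1 lies outside the interval.

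Slc27a3, a family member with activity on very long chains, read 4.66, 4.52, 4.67 and 4.51 in DMSO and 4.66, 4.78 and 4.67 with the inhibitor. The difference was 0.12 (95% interval -0.016 to 0.25, adjusted p = 0.289 in limma). Slc27a2, the FATP2 of liver and kidney, read 3.70 to 3.91 in DMSO and 3.67 to 3.86 with the inhibitor, and its difference of 0.0068 had an interval of -0.16 to 0.17. Slc27a6, the FATP6 of heart, read 3.08 to 3.17 in DMSO and 3.17 to 3.20 with the inhibitor, a difference of 0.04 (interval -0.027 to 0.11). These 3 genes and Acsl6 lie toward the low end of a table that runs from 2.23 to 13.2. No detection calls were used, and nothing is said on whether such dim genes were expressed.

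All 5 listed FATP genes had a positive difference, against 47.3% of all genes, but 1 of the 5 passed, and Slc27a5, a FATP gene outside the list, had a difference of -0.06. The sign of Slc27a2 turned without DMSO 2, DMSO 3, SCD inhibitor 2 or SCD inhibitor 3, and that of Acsl6 without DMSO 2 or SCD inhibitor 3. No sign of the 8 genes turned after a further quantile normalization or with centred arrays. In all, the groups were apart for 2 of the 8 genes, against 17.3% of genes over the table.

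**Figure D2:**
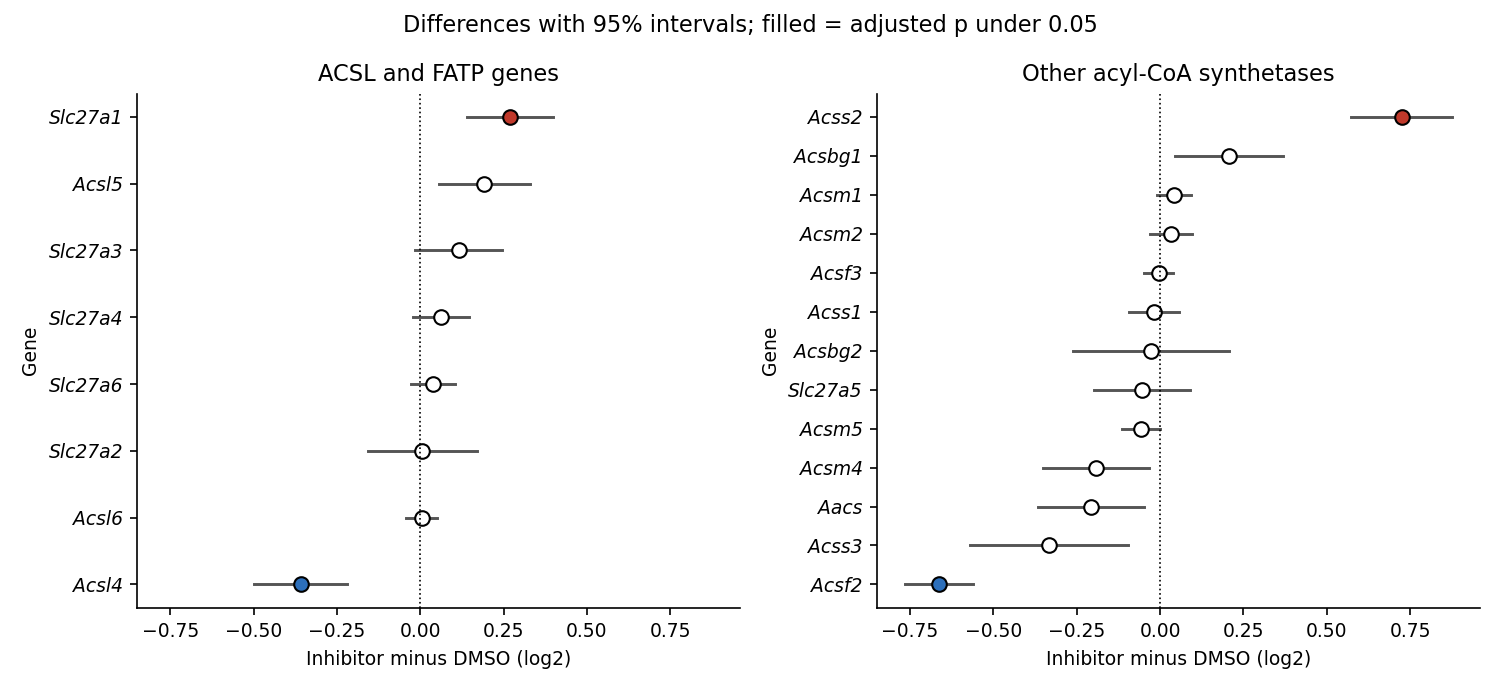
Difference between inhibitor and DMSO (log2, x axis) with its 95% interval for the 8 ACSL and FATP genes (left) and 13 other acyl-CoA synthetase genes (right); filled points had an adjusted p under 0.05, red for higher and blue for lower. Slc27a1 at 0.27 and Acsl4 at -0.36 lie on opposite sides of 0, and in the other panel Acss2 at 0.73 and Acsf2 at -0.66 do.

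Beyond the ACSL and FATP genes, 14 other acyl-CoA synthetase genes were listed and 13 measured, of which 1 rose and 1 fell. Over all genes tested 3.62% were called higher and 4.37% lower. Acss2, the cytosolic enzyme that makes acetyl-CoA from acetate, read 10.30, 10.27, 10.04 and 10.22 in DMSO and 10.91, 10.92 and 10.97 with the inhibitor, a 1.65-fold increase (log2 0.73, SE 0.064, adjusted p = 0.00112 in limma). Acsf2, a mitochondrial enzyme of medium-chain fatty acids, read 11.10, 10.97, 10.96 and 10.95 in DMSO and 10.32, 10.37 and 10.29 with the inhibitor, a 1.58-fold decrease (log2 -0.66, SE 0.043, adjusted p = 3.16e-04 in limma). The inhibitor and DMSO arrays did not overlap for either gene, and both calls held in all 17 alternative settings. A second transcript cluster assigned to Acsf2 had a difference of -0.60. Slc27a5, the remaining FATP gene, which is known from liver bile acid metabolism and lies outside the 10 genes named above, had a difference of -0.06 (SE 0.060) and did not pass. The list's median difference was -0.028.

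Proteins that bind, split or consume acyl-CoA were read from 3 further lists. Of 8 acyl-CoA binding proteins none passed in limma, 4 had an unadjusted p under 0.05, as did 21.9% of all genes, and the median difference was -0.030. The smallest p-values were those of Eci2, an enoyl-CoA isomerase with an acyl-CoA binding domain (log2 -0.19, SE 0.045, adjusted p = 0.0587), and Acbd5, a tether between peroxisomes and the endoplasmic reticulum (log2 0.22, SE 0.069, adjusted p = 0.131). Eci2 passed in 6 of 17 alternatives and Acbd5 in 2, among them the further quantile normalization for both.

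Of 13 measured acyl-CoA thioesterases, which release the fatty acid from coenzyme A again, 1 fell, where 4.37% of all genes were called lower. Acot2, a mitochondrial thioesterase, went from 11.04 ± 0.054 (SD, n = 4) to 10.66 ± 0.075 (SD, n = 3), a difference of -0.39 (SE 0.044, adjusted p = 0.00358 in limma). Acot2 has close paralogs, Acot1 among them, and the array rows of such copies may share signal. The Acot1 row read 3.73 in DMSO and 3.69 with the inhibitor, and shared signal was not tested. Acot7, another thioesterase, had a positive difference of 0.16 (SE 0.037) and did not pass, with an adjusted p of 0.0501 in limma. Of the 13 differences 6 were positive and 7 negative. The list's median difference was -0.0060.

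Among enzymes that use acyl-CoA, 24 of 30 listed were measured, and 5 fell and 3 rose, with a median difference of -0.048. The shares over all genes were 4.37% called lower and 3.62% called higher. In triacylglycerol and phospholipid synthesis, Dgat2, which attaches the last acyl chain to triacylglycerol, fell by 0.47 (SE 0.026). Agpat5, a lysophosphatidate acyltransferase, also fell by 0.47 (SE 0.061). Gpat3, which starts glycerolipid synthesis, fell by 0.37 (SE 0.070, adjusted p = 0.0248 in limma), and Agpat3, an acyltransferase of the next step, fell by 0.15 (SE 0.028, adjusted p = 0.0248 in limma). Lpcat2, which reacylates lysophosphatidylcholine, rose by 0.36 (SE 0.075, adjusted p = 0.0322 in limma). Its levels were low, 4.82 in DMSO and 5.18 with the inhibitor, and the filter on the dimmest 50% of genes left it out.

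In oxidation, Acox2, a peroxisomal oxidase of branched chains, was 4.07-fold lower (log2 -2.02, SE 0.080). Cpt1a, which passes acyl groups to carnitine for entry into mitochondria, rose by 0.43 (SE 0.034), and Cpt1c, a relative best known from neurons, rose by 0.41 (SE 0.067, adjusted p = 0.0135 in limma). Acox2, Dgat2, Cpt1a and Agpat5 passed in all 17 alternative settings. Cpt1c did not pass without DMSO 4 (adjusted p = 0.0515), SCD inhibitor 2 (0.0616) or SCD inhibitor 3 (0.0653). Gpat3 did not pass without DMSO 1 (0.0807), DMSO 2 (0.061), DMSO 4 (0.0799), SCD inhibitor 1 (0.0771) or SCD inhibitor 2 (0.0928). Agpat3 kept its call without DMSO 1 or DMSO 2 and lost it without any other single array (0.0566 to 0.0815) or with centred arrays (0.052). Lpcat2 kept its call without DMSO 2 and lost it without any other single array (0.0515 to 0.118). Without both arrays numbered 1 the adjusted p in limma was 0.097 for Cpt1c, 0.178 for Gpat3, 0.0816 for Agpat3 and 0.141 for Lpcat2.

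**Figure D3:**
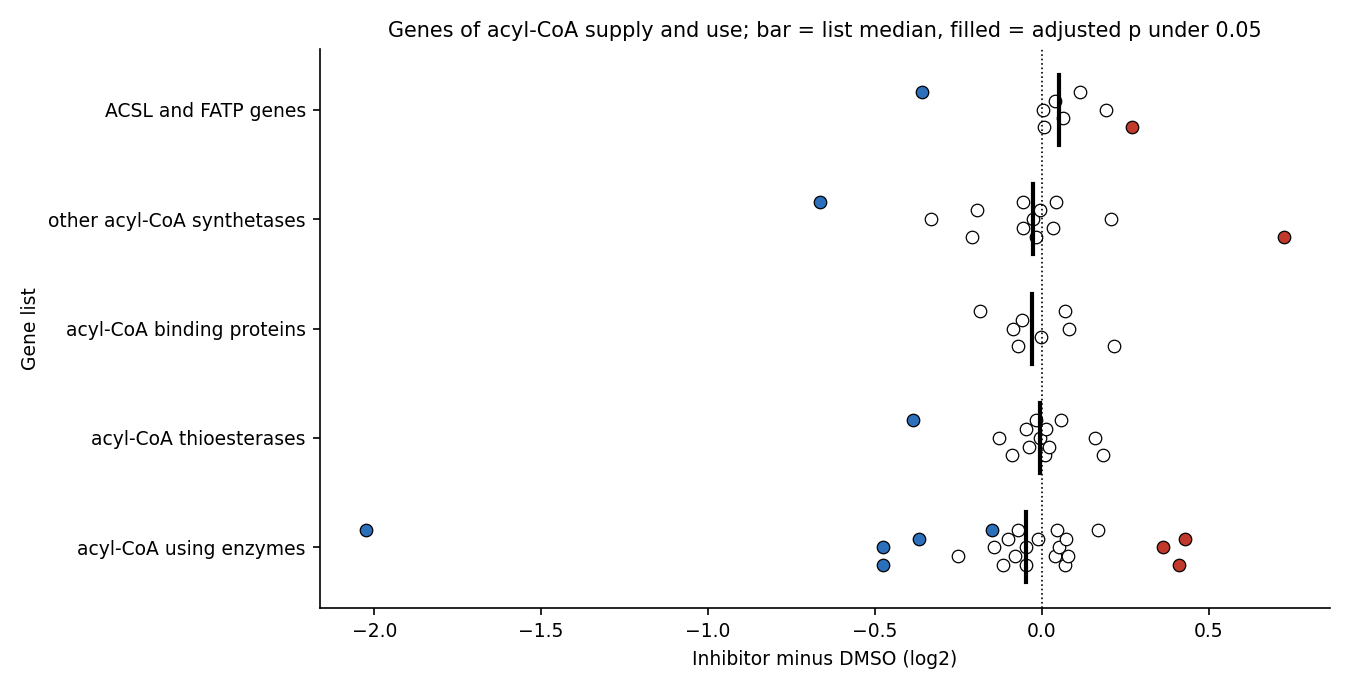
Difference between inhibitor and DMSO (log2, x axis) for each measured gene of 5 lists of acyl-CoA supply and use (y axis), with the list median as a bar; points are spread vertically for legibility, and filled points had an adjusted p under 0.05 (red higher, blue lower). The medians lie between -0.048 and 0.051, and the point farthest from 0 is Acox2 at -2.02.

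The genes whose pattern over the 7 arrays was nearest to each changed member were found by the root mean square difference after centring every gene on its DMSO mean. For Acsl4 these were Cnot6l, a deadenylase subunit (distance 0.035), Snx18, a sorting nexin (0.037), and Abraxas1, a scaffold of a BRCA1 complex (0.043), with differences of -0.33, -0.38 and -0.39. For Slc27a1 they were Upf1, the helicase of nonsense-mediated decay (0.026), Angptl4, a secreted inhibitor of lipoprotein lipase (0.029), and Mmab, an enzyme of cobalamin metabolism (0.033), with differences of 0.26, 0.26 and 0.27. All 6 passed the test in limma in the direction of their member. The distance includes the inhibitor arrays, so the choice itself favoured genes with a similar difference, and these calls add no support. The distances are log2 units over 7 arrays, and nearness to a chosen profile is a description.

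Over the series, arrays of one group correlated at 0.99902 to 0.99948 and arrays of different groups at 0.99684 to 0.9975 over all genes. Array medians were 4.93 to 4.94, except 4.88 for SCD inhibitor 1. Of all genes 1505 passed, with 980 without DMSO 4, 949 without SCD inhibitor 3 and 808 without both arrays numbered 1. Against the labelled cell type, the fat cell marker Adipoq read 12.39 in DMSO and 12.44 with the inhibitor. Of 11 measured fat cell markers 9 did not pass and 2 fell, where 4.37% of all genes fell. The 2 were Pck1 (log2 -2.08, SE 0.052) and Slc2a4 (log2 -0.80, SE 0.070). The summed linear level of the fat cell markers was 43646 to 44685 in DMSO and 41706 to 43402 with the inhibitor. Markers of pre-adipocytes and fibroblasts moved with the treatment: 5 of 8 measured rose, against 3.62% of all genes, and Pdgfra rose most (log2 0.89, SE 0.093). The summed linear level of that list was 4576 to 4987 in DMSO and 6492 to 6775 with the inhibitor. The summed levels in DMSO and with the inhibitor are given in the same order for other cell types. For macrophages (7 markers, 177 to 188 against 166 to 176), endothelium (5 markers, 79 to 87 against 80 to 82) and skeletal muscle (5 markers, 144 to 152 against 142 to 146) no marker passed in limma, and at an unadjusted p under 0.05 there was 1, Lyz2 of macrophages. The part of the pre-adipocyte markers in the changes of Acsl4 and Slc27a1 was not tested, and in bulk RNA fewer cells of a type and less RNA per cell cannot be told apart.

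**Figure D4:**
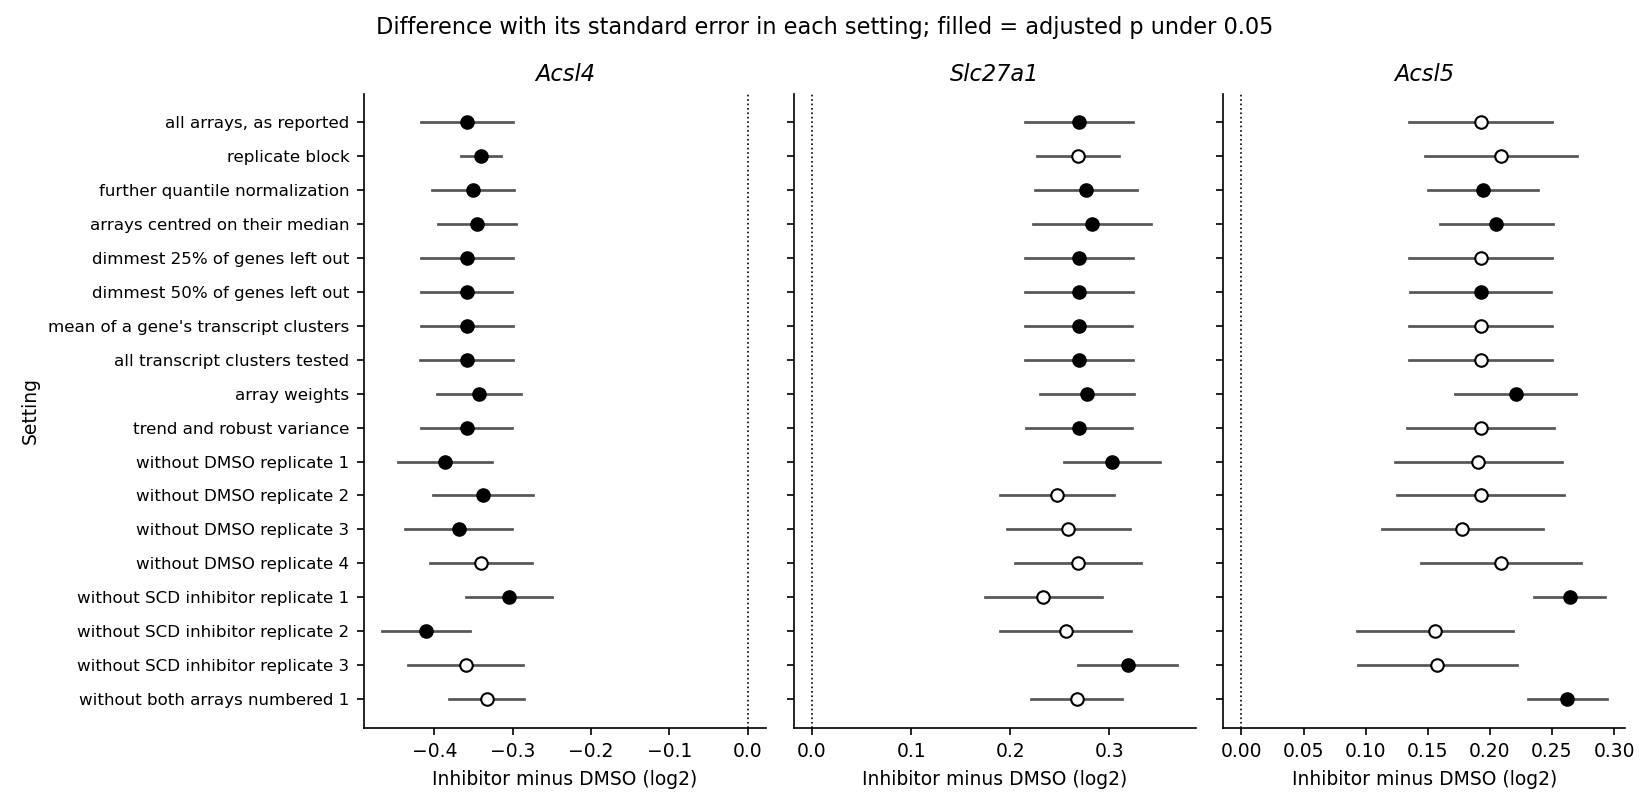
Difference between inhibitor and DMSO (log2, x axis) with its standard error for Acsl4, Slc27a1 and Acsl5 with all arrays and in 17 alternative settings (y axis); filled points had an adjusted p under 0.05. Each gene keeps its direction throughout; Acsl4 passed in 14 of the 17 alternatives, Slc27a1 in 10 and Acsl5 in 6.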

How the data were processed

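Total RNA of 7 samples, 100 ng each, was hybridised to Affymetrix whole-transcript arrays, 1 per sample. The deposited values are log2 expression levels. The submitters' processing notes name RMA without a version or filter, and the values themselves show the log2 scale. RMA can compress differences near both ends of its scale. Precision is limited by how few arrays there are, with a median standard error of 0.039 per difference.

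Rows were named from the array annotation. Of 28996 rows, 21218 had 1 symbol; rows with several symbols (1881) or none listed (5897) named no gene. For the 1386 genes with more rows, the row with the highest mean over all arrays was used, which left 18820 genes without a filter. Limma 3.58.1 (lmFit, eBayes) in R 4.3.3 compared the SCD inhibitor with DMSO across all genes on 5 residual and 1.68 prior degrees of freedom, after tests on simulated data. Samples were grouped by their treatment label.

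All members were named, and from each companion list every gene that passed or, with none, the 2 with the smallest p. For each member that passed, the 3 nearest genes were named, predicted genes and receptors of smell left out. Lyz2, Adipoq, Slc27a5, Acot1, Acot7 and the markers printed were chosen outside this rule. Members and lists were chosen with earlier results of these data known. The alternatives were a replicate block, normalization, centring, dim gene filters, row choice, array weights, variance options and arrays left out.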

Additional observations from a re-analysis of the deposited data

Results flagged for a closer look

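In the DMSO group of 4, a single array stood apart from the other 3 for 4 genes named in the text, judged by its gap to the nearest other array divided by the group's range. For Acsl6 the share was 1, with DMSO 2 at 3.86 and the other 3 arrays at the same value of 3.88. For Slc27a6 it was 0.853, with DMSO 1 at 3.08 and the others at 3.16 to 3.17. For Acsf2 it was 0.857, with DMSO 1 at 11.10 and the others at 10.95 to 10.97. For Slc27a5 it was 0.898, with DMSO 2 at 3.63 and the others at 3.42 to 3.44. Chance flags about 1 in 20 groups, and here 20 of 108 genes checked stood out in this way. Deposited values repeat often: 76.9% of all genes had the same value on 2 or more arrays, which makes such ratios coarse. The differences of Acsf2 stayed between -0.69 and -0.63 in all 17 alternatives, including the one without DMSO 1.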

How the results depend on the processing

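With all arrays 1505 genes were called. Refits that each left out 1 array called 949 to 1294, and 808 were called without both arrays numbered 1, 2064 after a further quantile normalization and 2060 with centred arrays. The count of ACSL and FATP genes called, 2 with all arrays, ran from 0 to 2 when an array was left out. The 2 without SCD inhibitor 1 were Acsl4 and Acsl5. The count was 1 without both arrays numbered 1, where only Acsl5 passed. It was 3 after a further quantile normalization, with centred arrays, without the dimmest 50% of genes or with array weights. In those settings Acsl5 joined Acsl4 and Slc27a1. The count was 0 in limma without DMSO 4. There 3 of the 8 had an unadjusted p under 0.05, as with all arrays, where 21.9% of all genes did. Scaling moved the median of all genes by at most 0.013. Enzymes that use acyl-CoA passed in 4 to 7 cases with an array left out and in 4 without both arrays numbered 1, against 8 with all arrays. Thioesterases passed in 1 to 2 cases with an array left out, and in 2 without both arrays numbered 1, with a further quantile normalization, centred arrays, either dim gene filter, averaged transcript clusters, array weights or the trend and robust options, against 1 as reported. Acyl-CoA binding proteins, 0 as reported, passed in 2 cases with the quantile normalization or centred arrays and in 1 with either dim gene filter or array weights. Over the single arrays left out, the difference of Acsl6 ran from -0.0078 to 0.018 and that of Slc27a2 from -0.038 to 0.061, so their signs are not settled. The causes were not tested.

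With the replicate number as a block, 896 genes passed, 1 of the ACSL and FATP genes (Acsl4, adjusted p = 0.0235; Slc27a1 had 0.0645), 4 acyl-CoA using enzymes, 1 binding protein and 0 thioesterases (limma; adjusted p was 0.0705 for Acot2, 0.0781 for Cpt1c, 0.154 for Gpat3, 0.0874 for Agpat3 and 0.152 for Lpcat2). The main fit did not take equal numbers to pair the samples. Deviations from the group means correlated at 0.174, 0.138 and 0.0796 for numbers 1, 2 and 3. Between DMSO 1, 2 or 3 and an inhibitor array of another number, every correlation was negative, from -0.171 to -0.0076. DMSO 4, which has no partner, correlated at 0.16 with SCD inhibitor 2. Whether the samples were paired is thus not settled.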
